A study of Mus musculus with 6 samples.

Results

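Hedgehog pathway genes were followed in the ectoderm of the mouse forelimb bud, with and without the zinc finger transcription factor Sp8. The genes were the ligand Shh, the receptors and ligand-binding proteins Ptch1, Gas1, Boc and Hhip, the signal transducer Smo and the transcription factors Gli1, Gli2 and Gli3. They were chosen by symbol, as 9 of the 49452 genes in the table, and each matched 1 row. RNA of ectoderm at E10.5 was measured in 3 Sp8 null and 3 wild-type embryos, each library holding the ectoderm of the 2 forelimbs of a single embryo, peeled off after 20 min in 0.25% trypsin. Wild-type embryos were bred from C57BL/6 inbred parents and Sp8 null embryos from intercrossed carriers of the Sp8-Cre-ERT2 allele. The labels give C57BL6J as the background strain of all 6. By this breeding the controls would not be littermates, and genotype could not be told apart from parental cross or litter. The litter and sex of each embryo are not given in the labels. Values are FPKM, counts of sequenced fragments divided by transcript length and by the size of the library, which can be compared between genes because they are scaled by transcript length. Values of single libraries are given in the order of embryos 1, 2 and 3.

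Hedgehog ligands act by binding Patched receptors, which otherwise hold the membrane protein Smoothened (Smo) inactive. Active Smo lets Gli2 and Gli3 work as activators rather than be cut to repressors, and Gli1, Ptch1 and Hhip are widely used as readouts because their genes respond to the signal. In the limb bud Shh is made by posterior mesenchyme under the overlying ectodermal ridge, whose fibroblast growth factors maintain it, and most known responses lie in mesenchyme. Gas1, Cdon and Boc are co-receptors that help ligand reach Ptch1, and in other embryonic tissues hedgehog signalling is known to lower their expression.

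A gene is called different where its adjusted p-value is under 0.05, from a linear model (limma) of log2(FPKM + 1) fitted to the 12133 genes that reached 1 FPKM in 3 or more libraries, with Benjamini-Hochberg adjustment over all of them. By this rule 829 genes, or 6.83%, were called, 1.68% higher and 5.15% lower in Sp8 null. Sp8 itself was between 0.460 and 1.14 FPKM in the null libraries and between 8.35 and 13.5 FPKM in the wild-type libraries. Depth is known only relative to wild-type embryo 1 and lay between 0.842 and 1.03 in the other 5 libraries. The ectoderm markers, 10 of 10 past the filter, summed to between 486 and 588 FPKM in null libraries and to between 571 and 613 FPKM in the others. Among these 10, Tfap2a was called higher (log2 fold change 0.52, limma adjusted p = 0.0163) and Epcam lower (-0.53, limma adjusted p = 0.0313). The ranges of the groups were separate for 1 higher and 3 lower, against 8.63% and 21.1% of all tested genes. The 12 limb mesenchyme markers summed to 43.4, 147 and 39.3 FPKM in the null libraries and to 77.5, 38.9 and 58.1 FPKM in the wild-type ones. Sp8 null embryo 2 thus had the highest sum, with 7 of the 12 markers at their highest there, and results that rest on it are given with and without it. Endothelial markers summed to at most 4.41 FPKM and neural crest markers to at most 1.23 FPKM in any library. The endothelial sums overlapped between the groups, but Pecam1 and Cdh5 were higher in every null library, at 0.359 FPKM or less. Macrophage markers summed to between 2.71 and 5.09 FPKM in Sp8 null and to between 1.69 and 2.46 FPKM in wild type, ranges that did not overlap. Of these 6 markers Cx3cr1, Fcer1g and Tyrobp were higher in every null library, all at 1.22 FPKM or less. Like Pecam1 and Cdh5 they were under the filter, so shares of tested genes do not cover them. All 6 macrophage markers were highest in Sp8 null embryo 2. Erythroid markers ranged from 11.6 to 422 FPKM in wild type and from 61.9 to 162 FPKM in Sp8 null, and muscle precursor markers from 11.3 to 15.2 and from 14.9 to 17.7 FPKM, of which nearly all was Met, a receptor also made by epithelia. In whole ectoderm, fewer cells of a type and less RNA per cell cannot be told apart.

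Of the 9 genes 6 passed the filter, and 1 of these 6, Gas1, was called, being higher in Sp8 null. Ptch1 was lower in every null library than in any wild-type library but did not pass the threshold. The groups also did not overlap for Gli2, so that 3 of the 6 tested genes had separate ranges, against 29.8% of all tested genes (8.63% with the null libraries higher, as for Gas1 and Gli2, and 21.1% lower, as for Ptch1). Smo, Gli1 and Gli3 had overlapping ranges. The median log2 fold change of the 6 was 0.14, against -0.06 over all tested genes. Among the 3 genes under the filter, Shh was lower and Hhip higher in all null libraries, and Boc overlapped.

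The promoters of Gas1 and Ptch1, which had the largest positive and negative fold changes of the 6 tested genes, are shown to give their sequence context. RefSeq's promoter table for GRCm38.p6 held 6 of the 9 genes (Ptch1, Smo, Gli2, Gli3, Hhip and Gas1). The last 250 bases before the start site are printed 5′ to 3′ in the direction of transcription, and capitals mark matches to the GC box GGGCGG, the sequence recognised by zinc fingers of the Sp family, on either strand (CCGCCC when reversed).
Ptch1, chr13:63565736-63565985, minus strand: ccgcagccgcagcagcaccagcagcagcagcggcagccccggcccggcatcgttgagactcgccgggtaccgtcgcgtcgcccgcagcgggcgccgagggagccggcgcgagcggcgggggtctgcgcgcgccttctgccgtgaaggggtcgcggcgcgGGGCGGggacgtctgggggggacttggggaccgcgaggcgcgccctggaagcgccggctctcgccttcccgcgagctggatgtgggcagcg
Gas1, chr13:60177536-60177785, minus strand: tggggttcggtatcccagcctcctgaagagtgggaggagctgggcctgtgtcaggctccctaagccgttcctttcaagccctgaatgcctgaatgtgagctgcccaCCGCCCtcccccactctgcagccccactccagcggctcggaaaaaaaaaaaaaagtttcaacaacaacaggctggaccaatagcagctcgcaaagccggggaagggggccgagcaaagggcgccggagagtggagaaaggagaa
The Ptch1 window lies inside the Ptch1 locus, upstream of a start site that is internal to the gene as GENCODE M21 draws it, and overlaps no annotated exon. The Gas1 window overlaps an exon of Gm48488, a gene on the other strand. Each window held 1 GC box, beginning 91 bases before the start of Ptch1 and 144 bases before that of Gas1. Gli2 also had 1, Gli3 and Hhip had 2 each, and Smo had none. A match was found in 32.7% of all 32851 promoters, counting those that held at least 1 match in the same 250 bases. A second search was for the letters GACCACCCA or TGGGTGGTC, the core motif of Gli factors. It found no match in any of the 6 windows and a match in 0.225% of all promoters. These matches describe letters in a short window and show no binding.

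Shh (chromosome 5, 28456815 to 28467256, minus strand, GRCm38), the secreted ligand of the limb bud, had the lowest mean FPKM of the 9 genes in both groups. It was at 0.0735, 0.105 and 0.0173 FPKM in the null libraries and at 0.495, 0.208 and 0.171 FPKM in the wild-type ones. Every null library lay below every wild-type library, and wild-type embryo 1 was the highest. The means were 0.0652 ± 0.0444 and 0.291 ± 0.177 FPKM (SD, n = 3), a ratio of 0.224, which was 0.345 without wild-type embryo 1. The difference on the log2(FPKM + 1) scale was -0.27, and -0.16 without that library. Because Shh was under the filter, it was compared by a two-sided exact permutation test over libraries, which gave p = 0.1, the smallest that 3 against 3 allows, and 0.15 after Benjamini-Hochberg adjustment over the 3 genes under the filter. The authors' deposited table gave Shh a wild-type mean of 30.5 and a null mean of 6.55 on its scale of counts, a fold change of -1.85 and a p-value of 0.000199. Shh shares exon bases with 9530036O11Rik and Gm26894 on the other strand, which were at 0.0725 FPKM or less in every library.

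Ptch1 (chromosome 13, 63508328 to 63573598, minus strand), the main hedgehog receptor, was at 31.9, 18.2 and 28.3 FPKM in the null libraries. In the wild-type libraries it was at 40.8, 44.6 and 40.4 FPKM. The highest null library was below the lowest wild-type library, and the null libraries varied more, with embryo 2 lowest. The null mean was 26.1 ± 7.14 FPKM and the wild-type mean 41.9 ± 2.35 FPKM (SD, n = 3). The log2 fold change was -0.70 (SE 0.19, 95% interval -1.13 to -0.26), and the adjusted p was 0.0686 (limma, Benjamini-Hochberg). Without Sp8 null embryo 2 it was -0.46 and was called (limma adjusted p = 0.0449). With the mean level of the mesenchyme markers as a covariate, an alternative chosen after seeing the data, it was -0.56 (limma adjusted p = 0.0426). Over all alternatives the adjusted p ranged from 0.0426 to 0.204. The authors' deposited table gave Ptch1 a signed fold change score of -1.41, which is not a log2 value, with a p-value of 0.0128.

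Gas1 (chromosome 13, 60174405 to 60177365, minus strand), a membrane-anchored co-receptor of the ligand, was at 42.1, 43.9 and 44.4 FPKM in the null libraries and at 27.4, 29.7 and 25.02 FPKM in the wild-type ones. The groups were far apart relative to the spread within each. Gas1 rose in the mutants, to 43.5 ± 1.19 FPKM against 27.3 ± 2.32 FPKM (SD, n = 3). Its log2 fold change was 0.65 (SE 0.08, 95% interval 0.47 to 0.84, limma adjusted p = 0.00417). Without Sp8 null embryo 2, the library rich in mesenchymal RNA, it was 0.65, and it was between 0.59 and 0.71 when any single library was left out, with adjusted p-values (limma) from 0.00995 to 0.0183. The summed macrophage markers and the endothelial markers Pecam1 and Cdh5 were also higher in every null library. The part of these cells in the Gas1 change was not tested. The authors' deposited table gave Gas1 a fold change of 1.61, with a p-value listed as 0. Its exons share bases with Gm48488 on the other strand, and the use of strand in counting is not given in the sources used here.

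Boc (chromosome 16, 44485049 to 44558897, minus strand), an immunoglobulin-type co-receptor, was at 0.484, 1.64 and 0.410 FPKM in the null libraries and at 0.880, 0.603 and 0.453 FPKM in the wild-type ones. The groups overlapped, and Sp8 null embryo 2 was highest (two-sided exact permutation p = 0.9, adjusted over the 3 genes 0.9). Its difference on the log2(FPKM + 1) scale was 0.11, and -0.18 without that library. Hhip (chromosome 8, 79965851 to 80058006, minus strand) binds and sequesters hedgehog ligands. It was at 0.627, 0.624 and 0.624 FPKM in the null libraries and at 0.426, 0.312 and 0.367 FPKM in the wild-type ones. All null libraries were higher, the ratio of means being 1.70, at a low level in both groups (two-sided exact permutation p = 0.1, adjusted over the 3 genes 0.15). The authors' deposited table gave Hhip means of 108 in wild type and 185 in Sp8 null, a fold change of 1.57 and a p-value of 8.8e-05.

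Smo (chromosome 6, 29735503 to 29761365, plus strand), which passes the signal inward, was at 36.7, 34.5 and 33.7 FPKM in the null libraries and at 41.0, 35.0 and 34.8 FPKM in the wild-type ones. The ranges overlapped, and the log2 fold change was -0.07 (SE 0.08, 95% interval -0.27 to 0.12, limma adjusted p = 0.644). Its sign turned under upper-quartile scaling between libraries (0.02) and without wild-type embryo 1 (0.0019).

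**Figure D1:**
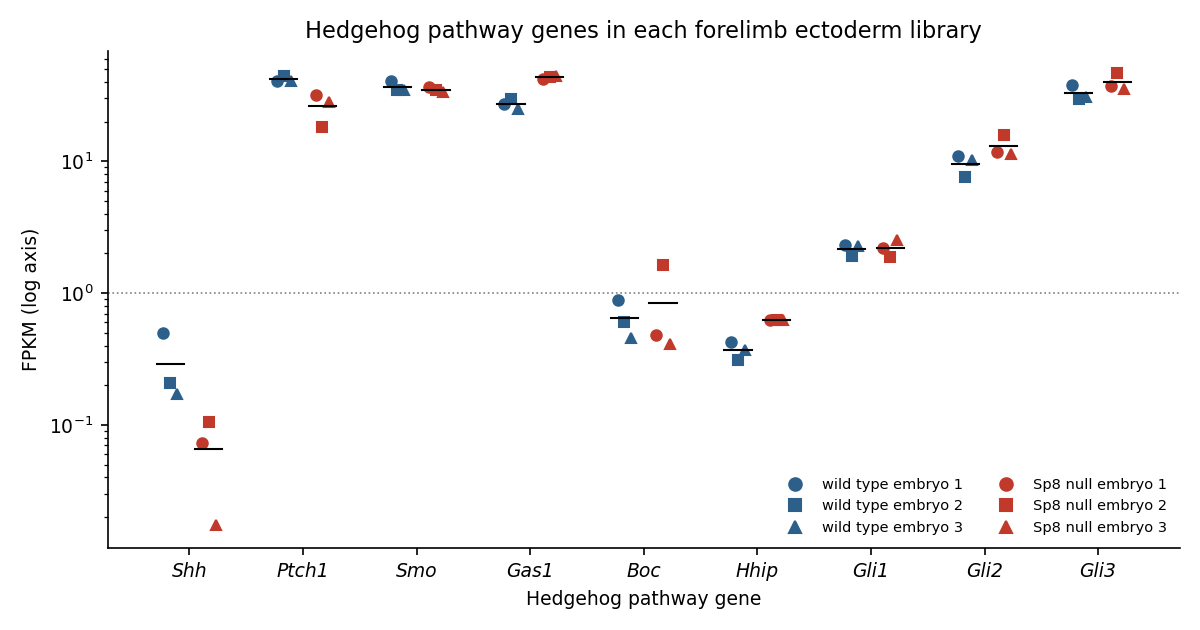
FPKM of the 9 hedgehog pathway genes on a log axis, 1 point per library, with wild type in blue, Sp8 null in red and black bars at the group means; the dotted line marks 1 FPKM. Gas1 is higher and Ptch1 lower in all 3 null libraries, and Gli1 lies between 1.87 and 2.55 FPKM in all 6.

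None of the 3 Gli genes was called in limma, and 1, Gli2, had an unadjusted p under 0.05 (0.0438), against 24% of all tested genes. Gli1 (chromosome 10, 127329882 to 127341974, minus strand), the activator that is itself a target of the pathway, was at 2.20, 1.87 and 2.55 FPKM in the null libraries and at 2.30, 1.92 and 2.27 FPKM in the wild-type ones. The groups overlapped throughout, with a log2 fold change of 0.02 (SE 0.12, 95% interval -0.26 to 0.30, limma adjusted p = 0.948). The interval covers changes of either sign, and the sign turned without Sp8 null embryo 3 (-0.06) and without wild-type embryo 2 (-0.04). Its exons share bases with Arhgap9 on the other strand, at 0.595 FPKM or less.

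Gli2 (chromosome 1, 118834132 to 119053619, minus strand), the principal activator, was at 11.7, 15.9 and 11.3 FPKM in the null libraries and at 10.9, 7.56 and 10.3 FPKM in the wild-type ones. The lowest null library was just above the highest wild-type one. The log2 fold change was 0.40 (SE 0.17, 95% interval 0.01 to 0.79, limma adjusted p = 0.193). It was 0.26 without Sp8 null embryo 2 and 0.26 without wild-type embryo 2, both over 1.5 times smaller. Gli3 (chromosome 13, 15463235 to 15730026, plus strand), which acts mainly as a repressor in the limb, was at 37.2, 46.5 and 35.3 FPKM in the null libraries and at 38.0, 29.8 and 31.0 FPKM in the wild-type ones. The ranges overlapped, with a log2 fold change of 0.26 (SE 0.13, 95% interval -0.05 to 0.56, limma adjusted p = 0.279). It was 0.14 without Sp8 null embryo 2. The authors' deposited table gave fold changes of 1.1 for Gli2, 1.2 for Gli3 and 1.05 for Gli1, with p-values of 0.087, 0.00306 and 0.59. Gli3 shares exon bases with Gm6556 on the other strand, at 0.320 FPKM or less.

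The level of mesenchymal RNA was compared with these values library by library. Sp8 null embryo 2, with the highest summed mesenchyme markers, had the highest Gli2, Gli3 and Boc of all 6 libraries and the lowest Ptch1. Of the 12 markers 7 were highest there, Pdgfra, Lhx9 and Alx4 were highest in wild-type embryo 1, Col1a2 in wild-type embryo 3 and Msc in Sp8 null embryo 3. Prrx1 was at 53.3 FPKM in that library and between 3.92 and 16.5 FPKM in the other 5. Pdgfra was lower in every null library than in any wild-type one, at 19.55 FPKM in that library, 6.37 and 6.01 FPKM in the other null libraries and between 19.75 and 23.8 FPKM in wild type. No mesenchyme marker was at 0 in any library, and of 9 tested none was called in limma (3 at an unadjusted p under 0.05, against 24% of all tested genes). The ranges of these 9 were separate for 1 higher (Twist2) and 1 lower (Pdgfra), against 8.63% and 21.1% of all tested genes. With the mesenchyme level as a covariate the log2 fold change was 0.27 for Gli2 and 0.16 for Gli3 (limma adjusted p = 0.158 and 0.264) and 0.66 for Gas1 (limma adjusted p = 0.00938).

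**Figure D2:**
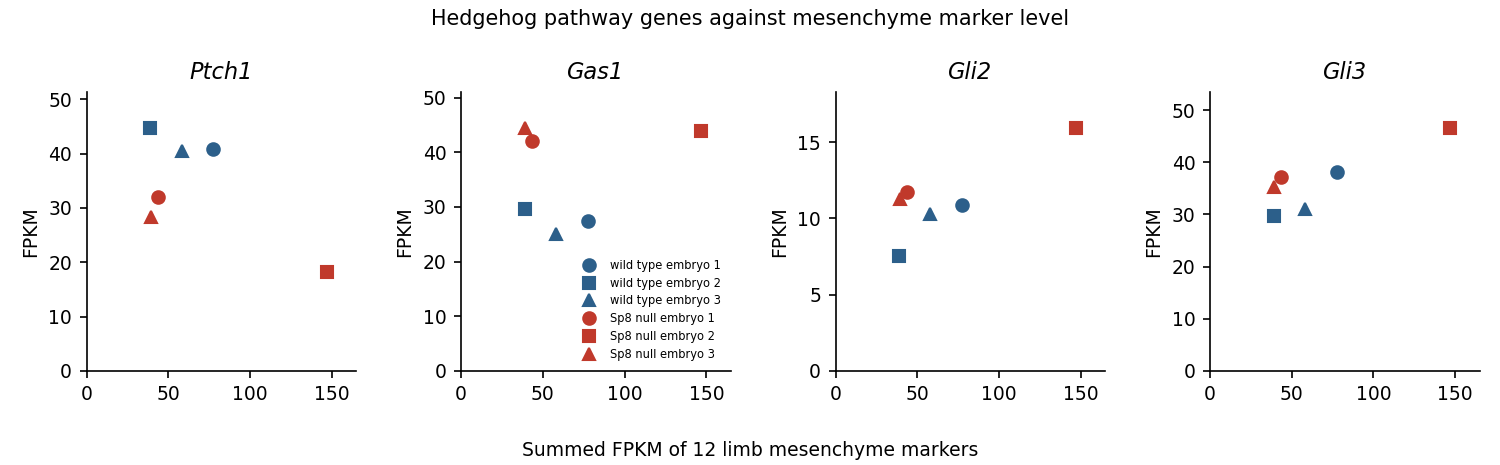
FPKM of Ptch1, Gas1, Gli2 and Gli3 against the summed FPKM of 12 limb mesenchyme markers, 1 point per library. Sp8 null embryo 2, at 147 on the horizontal axis, has the highest Gli2 and Gli3 and the lowest Ptch1, while Gas1 is between 42.1 and 44.4 FPKM in all 3 null libraries.

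The order of levels differed between the groups. In wild type it ran, by mean FPKM, from Ptch1 (41.9) through Smo (36.9), Gli3 (32.9) and Gas1 (27.3) to Gli2 (9.58), Gli1 (2.16), Boc (0.645), Hhip (0.368) and Shh (0.291). Neighbours whose libraries overlapped were Ptch1 with Smo, Smo with Gli3, and Hhip with Shh. In Sp8 null the order was Gas1 (43.5), Gli3 (39.7), Smo (35.0), Ptch1 (26.1), Gli2 (12.97), Gli1 (2.21), Boc (0.846), Hhip (0.625) and Shh (0.0652). There Gas1 overlapped Gli3, Gli3 overlapped Smo, and Boc overlapped Hhip. Ptch1 and Gas1 thus exchanged the 1st and 4th places.

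Ratios within a library, added after seeing the data, do not depend on scaling between libraries. The ratio of Ptch1 to Gas1 FPKM was 0.758, 0.414 and 0.639 in the null libraries and 1.49, 1.504 and 1.61 in the wild-type ones. All wild-type libraries thus held more Ptch1 than Gas1 per length and all null libraries less. Ptch1 was lower and Gas1 higher in every null library, so the ranges of this ratio had to be separate. The ratios with Ptch1 as numerator reuse its values and are no separate test of Ptch1. The ratio of Ptch1 to Smo was between 0.526 and 0.870 in Sp8 null and between 0.995 and 1.27 in wild type, and that of Ptch1 to Gli1 between 9.71 and 14.5 and between 17.7 and 23.3. The ratio of Gli3 to Gli2 overlapped, from 2.92 to 3.17 in Sp8 null and from 3.02 to 3.94 in wild type.

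**Figure D3:**
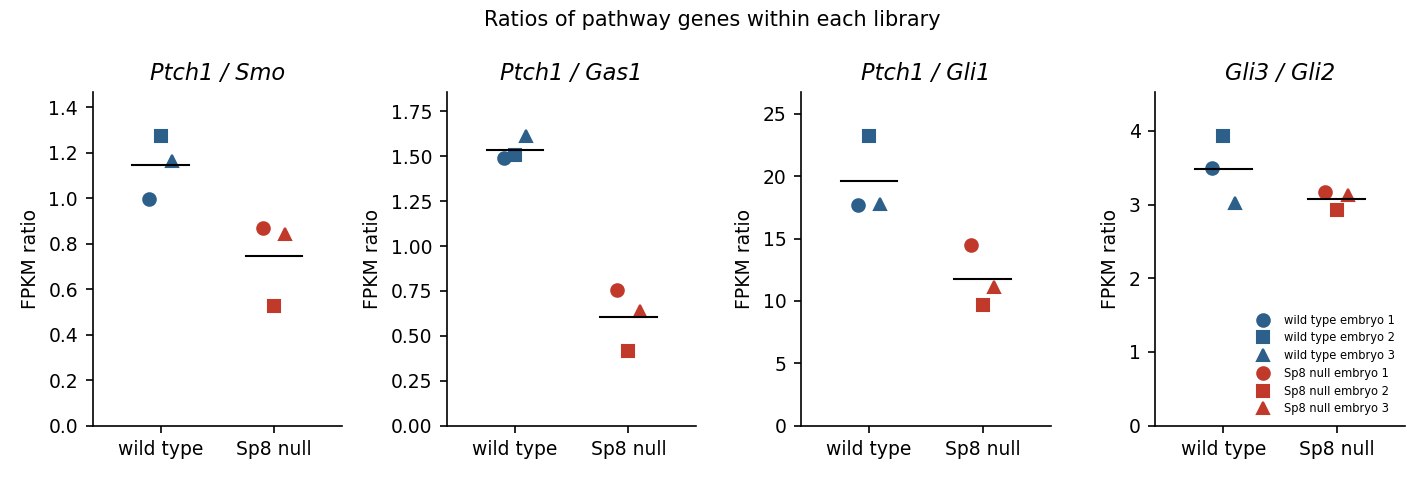
Ratios of FPKM between pathway genes within each library, with wild type in blue, Sp8 null in red and black bars at the group means. The 3 ratios with Ptch1 as numerator are lower in every null library, and Gli3 / Gli2 overlaps.

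The rest of the pathway was read from 49 further genes, listed with earlier results of these data known. Of these 44 were tested and 2 were called, both lower in Sp8 null. This is 4.55% of the list, against 6.83% of all tested genes. The median log2 fold change was -0.03, against -0.06 over all tested genes, and the ranges of these 44 were separate for 5 genes that were higher and 8 that were lower, shares near the 8.63% and 21.1% of all tested genes. Of the genes under the filter Scube2 was higher and Lrp2 lower with no overlap.

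Ligand release and reception gave no call among 7 tested genes in limma, and 4 of them had an unadjusted p under 0.05, against 24% of all tested genes. Of the ligands Ihh and Dhh, Dhh was listed at 0 in every library and Ihh at 0.0381 FPKM or less. Scube3, a secreted protein that helps free lipid-modified ligand, had the smallest p of its list, with 20.4, 20.3 and 21.5 FPKM in the null libraries against 25.04, 25.5 and 24.0 FPKM in the wild-type ones (log2 fold change -0.25, limma adjusted p = 0.0678). Under upper-quartile scaling its log2 fold change was -0.16. Cdon, a relative of Boc, was the one of 4 further receptors and co-receptors with separate groups among those tested. It was at 11.2, 13.3 and 10.9 FPKM in the null libraries and at 9.46, 8.85 and 8.12 FPKM in the wild-type ones. Its log2 fold change was 0.38 (SE 0.10, limma adjusted p = 0.0673), and it passed under median-of-ratios and upper-quartile scaling (limma adjusted p = 0.0346 and 0.0353).

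None of 16 intracellular transducers and none of 12 genes of cilium transport was called. At an unadjusted p under 0.05 these were 2 transducers and no cilium gene, against 24% of all tested genes. The smallest p among the transducers was that of Prkaca, a catalytic subunit of protein kinase A (log2 fold change 0.26, limma adjusted p = 0.115), which passed under median-of-ratios and upper-quartile scaling (limma adjusted p = 0.0443 and 0.0388). Log2 fold changes of the cilium genes lay between -0.20 (Tulp3, a ciliary trafficking factor) and 0.25 (Ift80, a subunit of intraflagellar transport). Tulp3 had the smallest p of them (limma adjusted p = 0.231), and its log2 fold change was -0.12 without Sp8 null embryo 2 and -0.11 under upper-quartile scaling. The widest interval in the transducer list was that of Prkacb, whose estimate failed in Sp8 null embryo 2 and is listed there at 0, against 20.1 to 20.6 FPKM elsewhere.

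Genes that respond to hedgehog in limb mesenchyme were not called in any of 6 tested cases in limma. Among them 1, Jag1, had an unadjusted p under 0.05, against 24% of all tested genes. Grem1, a secreted antagonist of bone morphogenetic proteins, was at 3.67, 25.7 and 6.96 FPKM in the null libraries and at 8.12, 1.32 and 2.41 FPKM in the wild-type ones, highest in the library rich in mesenchymal markers. Hand2, Hoxd10 and Hoxd11 were also highest there, while Hoxd12, Hoxd13 and Jag1 were highest in wild-type embryo 1. Jag1, a Notch ligand, had the smallest p of this list, with a log2 fold change of -0.49 (limma adjusted p = 0.0601), and was called without Sp8 null embryo 3 (-0.59, limma adjusted p = 0.0493).

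Cell cycle genes that respond to hedgehog in several tissues supplied both calls. These were 2 of 3 tested, both lower, against 5.15% of all tested genes called lower. Mycn, a Myc family factor that drives proliferation, was at 9.11, 9.83 and 12.2 FPKM in the null libraries and at 23.9, 24.2 and 18.7 FPKM in the wild-type ones. It fell by 1.03 on the log2 scale (SE 0.14, limma adjusted p = 0.00625). Ccnd1, cyclin D1, was at 32.5, 25.4 and 35.5 FPKM in the null libraries and at 54.6, 48.7 and 49.5 FPKM in the wild-type ones. It fell by 0.70 (SE 0.12, limma adjusted p = 0.0172). Without Sp8 null embryo 1 or any single wild-type library the adjusted p of Ccnd1 was between 0.0510 and 0.0593 (limma). Ccnd2 did not pass (log2 fold change 0.10, limma adjusted p = 0.758). Both called genes also respond to other signals of the limb bud, and the part of hedgehog in their change was not tested.

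**Figure D4:**
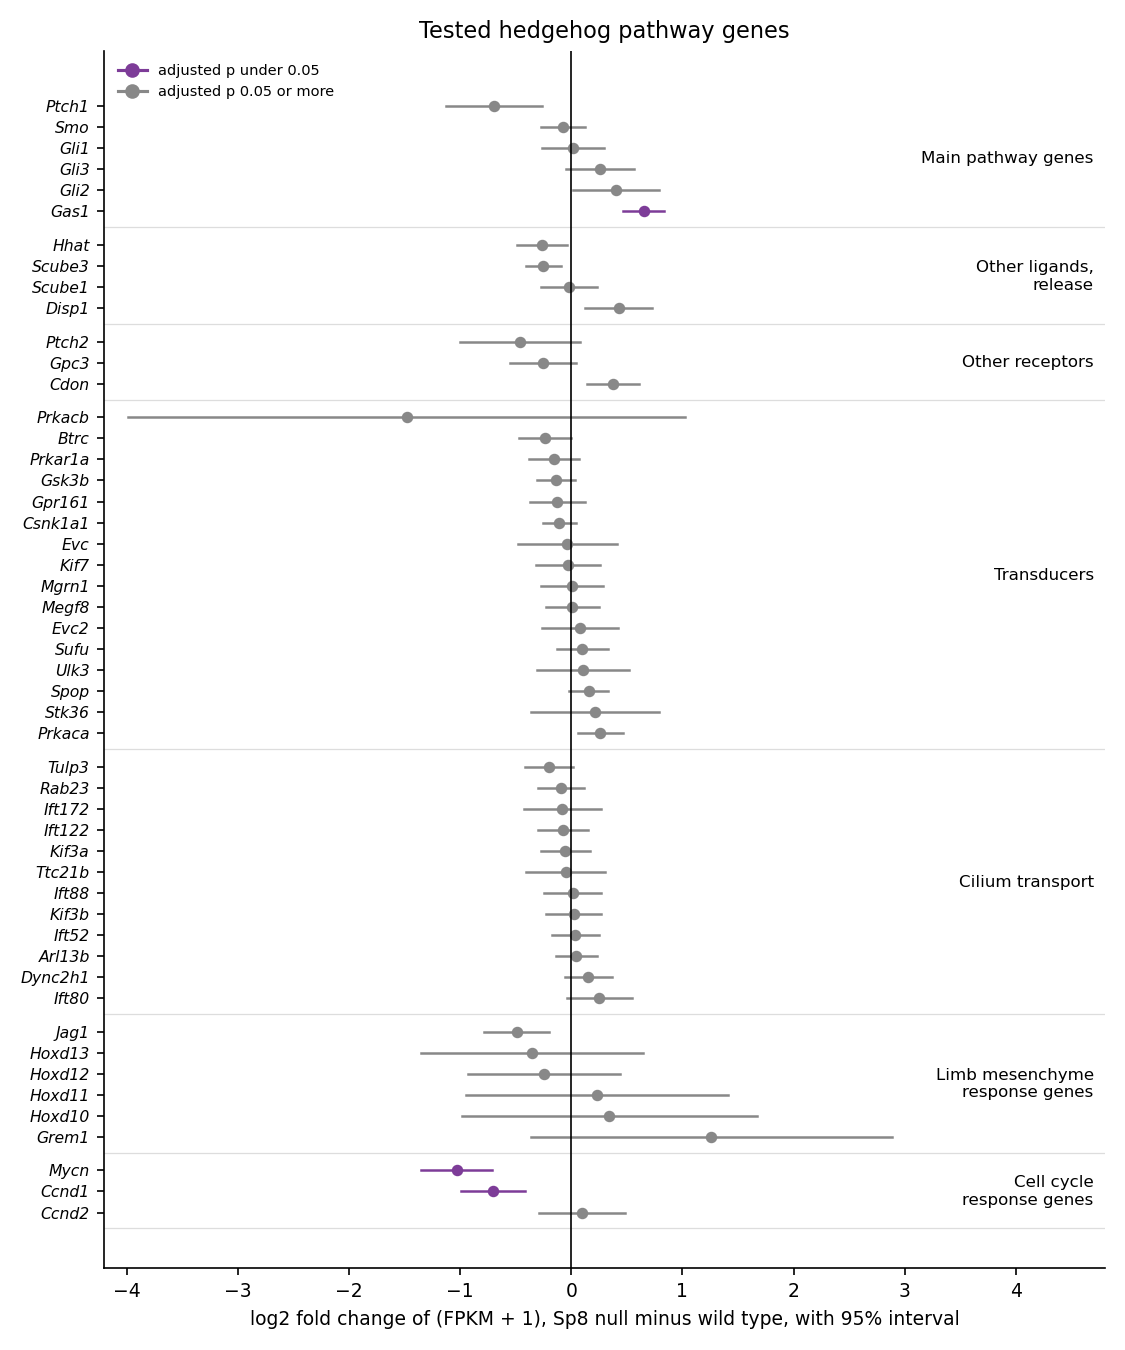
Log2 fold changes of FPKM + 1, Sp8 null minus wild type, with 95% intervals for 6 main and 44 further hedgehog pathway genes; purple marks an adjusted p under 0.05 (limma). Gas1 at 0.65, Mycn at -1.03 and Ccnd1 at -0.70 are the called genes.

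Genes whose levels followed Gas1 most closely were found by Pearson's r of log2(FPKM + 1) over the 6 libraries, among 12132 other tested genes. They were Zkscan2 (r = 0.997), Irx2 (0.992) and 2610008E11Rik (0.991). With 6 libraries in 2 groups, r mostly reflects the difference between the groups and is given as a description.

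Sample names begin with 4 for embryo 1 of either genotype and with 5 in the other 4 libraries, and what the number stands for is not given in the labels. Among the names beginning with 5, 2 against 2, the log2 fold change was 0.68 for Gas1 and -0.87 for Ptch1 (limma adjusted p = 0.0568 and 0.129). The names beginning with 4 hold 1 library a group and allow no test. With this number as a covariate Gas1 was called (limma adjusted p = 0.0109) and Ptch1 was not (0.0873).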

How the data were processed

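Polyadenylated RNA of 6 libraries (TruSeq v2, per the labels' protocols) was deposited as 1 table. The authors deposited FPKM per gene and library, with a status word for each estimate, on gene models of Ensembl build 87 per the file headers. Per the submitters' processing notes, the tools included TopHat2, Cufflinks, SAMtools, FastQC and DESeq2, on GRCm38, with no role given. The deposited group means are a signal on a scale of counts, and beside them the authors' deposited table holds a signed fold change score and a p-value whose test is not stated per the file headers. The score is not a log2 value and does not always equal the ratio of these means. For Scube2, means of 4.88 and 44.6 stand beside a score of 2.79. Depth is relative, from the commonest ratio of low FPKM values, so no counting interval is given.

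Groups came from the sample titles. FPKM was fitted as log2(FPKM + 1) with genotype as the only term in limma 3.58.1 (R 4.3.3), with a mean-variance trend, for genes that reached 1 FPKM in 3 or more libraries. Tests were two-sided. The fold scale understates changes of low genes. The fit was tested on simulated data. Alternatives were another pseudocount, filters, scalings, a replicate block, a covariate for the sample name, no trend, failed estimates left out (9 tested genes) and each library left out. Coordinates are from GENCODE M21 (GRCm38), which held 49109 of 49452 identifiers.

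The 9 genes and the lists were chosen with earlier results of these data known. Named genes are the 9, called genes of the pathway lists, the gene with the smallest p in each list, and the 3 most alike each called gene of the 9. Others (Prrx1, Pdgfra, Met, Prkacb, Grem1, Ift80, Ihh, Dhh, Ccnd2, Scube2, Lrp2, Hand2, Hoxd10, Hoxd11, Hoxd12 and Hoxd13) were named after their values were seen.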

Additional observations from a re-analysis of the deposited data

How the results depend on the processing

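The count of called genes, 829, was 342 with no filter on low values, 545 with the number that opens the sample names in the model, 251 among names beginning with 5 (chosen after seeing the data) and 316 to 642 when single replicates were dropped, fits with fewer samples in the last 2 cases. Among the runs with a single replicate dropped, the lowest count was without wild-type embryo 2. Calls higher in the mutant made up 24.6%, but 37.4% under median-of-ratios and 42% under upper-quartile scaling, which moved the median of all genes by 0.06 and 0.08 (log2). Of the 9 genes 1 was called, and 1 to 2 when single replicates were dropped. The count was 2 with the mesenchyme level as a covariate and 0 among names beginning with 5, both chosen after seeing the data. The second gene was Ptch1. Of the other pathway genes 2 were called, 1 with no filter, 4 under median-of-ratios and 4 under upper-quartile scaling (adding Cdon and Prkaca), 0 among names beginning with 5, and 1 to 3 when single replicates were dropped. Log2 fold changes turned sign for Smo under upper-quartile scaling (0.0214). With one replicate left out they ran from -0.113 to 0.00186 for Smo and from -0.0579 to 0.0946 for Gli1. Over 13 genes and 220 values, 201 kept direction and side of the threshold. The cause was not tested.

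Embryo numbers did not pair the libraries: deviations from the group means of same-numbered libraries correlated at -0.16, -0.14 and -0.07. With the replicate block 328 genes were called, and Gas1 remained called (limma adjusted p = 0.0265).

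Low FPKM limits the comparison of Shh, Hhip and Boc. On the scale of counts of the authors' deposited table, Shh had means of 30.5 in wild type and 6.55 in Sp8 null. These means were 108 and 185 for Hhip and 125 and 170 for Boc. With no filter the adjusted p-values of Shh, Hhip and Boc were 0.306, 0.175 and 0.871 (limma). On a pseudocount of 0.1 the log2 difference was -1.19 for Shh and 0.64 for Hhip, against -0.27 and 0.25 with a pseudocount of 1.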

Other observations

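Scube2, a secreted protein that helps release lipid-modified hedgehog ligand, was under the filter and is named after its values were seen. It was at 0.438, 0.267 and 0.252 FPKM in the null libraries and at 0.0424, 0.0389 and 0.0408 FPKM in the wild-type ones. Every null library was higher, with a ratio of mean FPKM of 7.84 at low levels. The authors' deposited table gave Scube2 means of 4.88 in wild type and 44.6 in Sp8 null and a fold change of 2.79. The ligand-binding endocytic receptor Lrp2, also under the filter, was between 0.137 and 0.246 FPKM in Sp8 null and between 0.248 and 0.428 FPKM in wild type.

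Shh was set against Hoxd13, a homeobox gene of posterior distal limb mesenchyme, where Shh is made. Hoxd13 overlapped between the groups, from 0.582 to 2.85 FPKM in Sp8 null and from 0.905 to 4.36 FPKM in wild type. The ratio of Shh to Hoxd13 FPKM, computed after seeing the data, was 0.0530, 0.0368 and 0.0297 in the null libraries and 0.113, 0.229 and 0.0871 in the wild-type ones. It was lower in every null library. Whether the Shh reads come from ectoderm or from adhering mesenchyme was not tested.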
